A study of Mus musculus with 18 samples.

Results

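The comparison asked where OK-432 changed gene expression to a different extent in tumours of 2 related mouse lines. Its members were 12 of the 18 libraries in the series, taken by their labels. They were 3 CT26-NY-ESO-1 tumours given OK-432, 3 CT26-NY-ESO-1 control tumours, 3 CT26 tumours given OK-432 and 3 CT26 control tumours, with the 6 libraries of LL/2 tumours left out. OK-432 is a lyophilised preparation of killed Streptococcus pyogenes used as an immune stimulant. CT26 was derived from a colon carcinoma in BALB/c mice, and CT26-NY-ESO-1 is the same line carrying the human cancer-testis antigen NY-ESO-1. Cells were placed under the skin, OK-432 went into the tumour for 24 hours, and tumours were taken on day 14. The labels name BALB/cJ and C57BL/6J hosts without tying either strain to a line. Whether control tumours received an injection, whether CT26-NY-ESO-1 is a single clone, the age of the mice and whether each library came from a separate mouse are not stated in the labels. The p-values therefore refer to the spread between libraries, which may be technical.

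Streptococcal products are sensed by Toll-like receptors and related sensors on myeloid, stromal and tumour cells. Sensing activates NF-kappaB, which induces interleukin-1, interleukin-6 and the CXC chemokines that act through the receptor Cxcr2. Those chemokines bring neutrophils from the blood within hours, and the arriving cells bring their own transcripts, among them S100a8, S100a9 and Csf3r, into a bulk tumour library. In such libraries fewer cells of a type and less RNA per cell cannot be told apart.

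Values were TPM from mRNA sequencing, the length-corrected share of each gene in the transcripts of its library, scaled to the same total everywhere. The OK-432 effect in a line was the mean log2(TPM + 1) of its OK432 libraries minus that of its Ctrl libraries. The difference of effects was the effect in CT26-NY-ESO-1 minus the effect in CT26, so a positive value means a larger effect in CT26-NY-ESO-1. It was tested with limma for 16019 of the 55291 genes in the table, those with at least 1 TPM in at least 3 of the 12 libraries. Genes with an adjusted p (Benjamini-Hochberg) under 0.05 are referred to as called.

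The libraries listed between 24036 and 25690 genes above 0 TPM. TPM keeps no sequencing depth, so depth was unknown. CT26-NY-ESO-1 OK432 replicate 2 stood apart from the other libraries of its group: the mean log2(TPM + 1) of 23 neutrophil genes was 2.78 in it and 4.42 and 4.07 in replicates 1 and 3. The SD of that score was 0.860 in CT26-NY-ESO-1 OK432 libraries, 0.144 in CT26-NY-ESO-1 Ctrl, 0.229 in CT26 OK432 and 0.168 in CT26 Ctrl. Skeletal muscle genes summed to 162 TPM in CT26-NY-ESO-1 OK432 replicate 2, to 144 and 181 TPM in CT26-NY-ESO-1 Ctrl replicates 1 and 3, to 197 TPM in CT26 OK432 replicate 1 and to between 7.52 and 29.1 TPM in the other 8. Of 16 epithelial markers 4 passed the filter, while Epcam and Krt8 did not. Of these 4, the keratin genes Krt18 and Krt20 measured 8.86 to 21.3 TPM and 5.09 to 21.6 TPM over the 6 CT26-NY-ESO-1 libraries, against at most 0.465 TPM and 0.503 TPM in CT26. Krt10 stayed at or below 2.04 TPM, and Cdh1, the epithelial cadherin, lay between 0.635 and 1.54 TPM over both lines. The lines also differed whatever the treatment: a list of 18 fibroblast and matrix genes summed to 3085 to 3799 TPM in CT26-NY-ESO-1 OK432 libraries and 2635 to 3455 TPM in CT26-NY-ESO-1 Ctrl, against 11860 to 15520 TPM in CT26 OK432 and 10750 to 15480 TPM in CT26 Ctrl. The human NY-ESO-1 transcript was not analysed here.

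Across all tested genes 1 was called for a larger effect in CT26-NY-ESO-1, the microRNA gene Mir31, which is 0.00624% of those tested. No gene was called for a smaller effect (0%) by limma. At an unadjusted p under 0.05 there were 571 genes with a larger effect (3.56%) and 692 with a smaller effect (4.32%). The median difference over all genes was -0.03, and 7066 genes had a positive difference (44.1%). The counts of each list below are to be read beside these shares. The genes with the greatest differences were of recognisable kinds: neutrophil transcripts and Cxcr2 ligands on the positive side and skeletal muscle transcripts on the negative side. None of these was called with all 12 libraries.

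**Figure D1:**
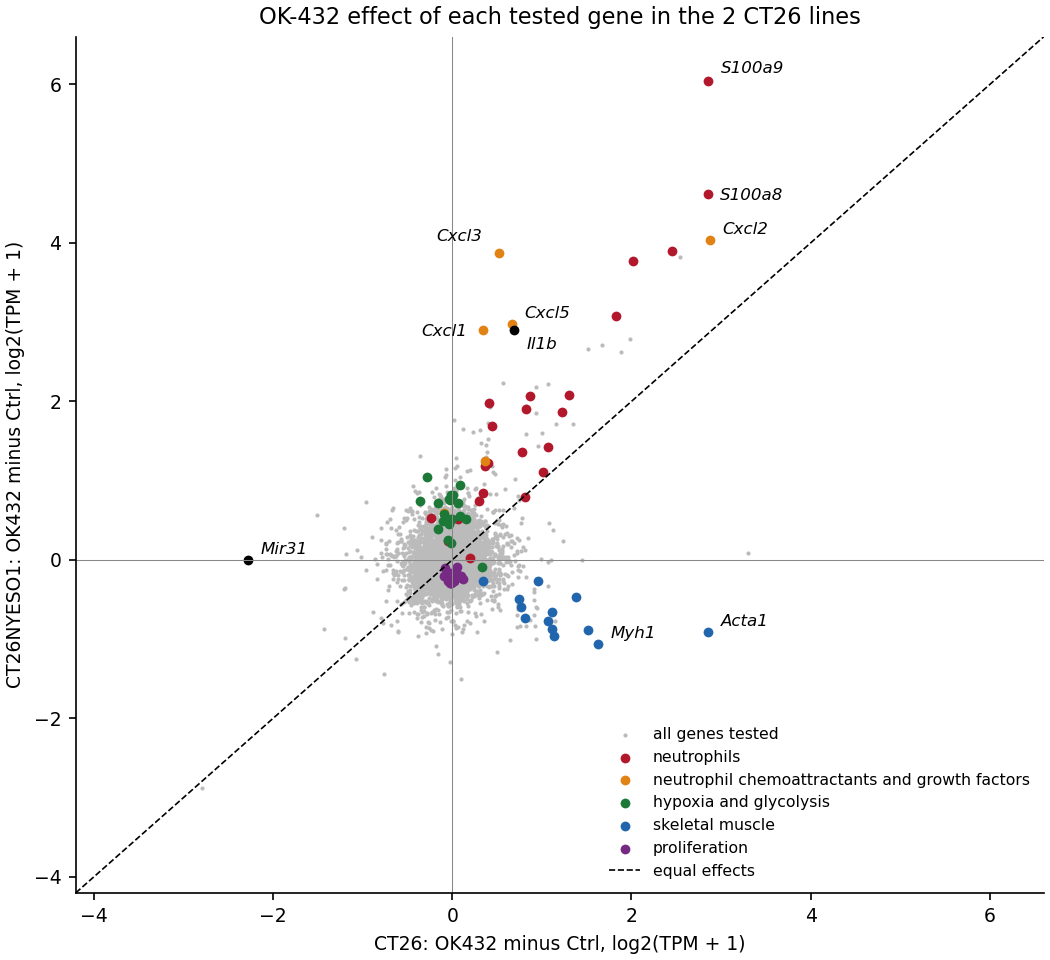
OK-432 effect of each of 16019 genes in CT26-NY-ESO-1 (vertical axis) against CT26 (horizontal axis), both as OK432 minus Ctrl in log2(TPM + 1), with 5 gene lists in colour and a dashed line of equal effects. Of 23 neutrophil genes 21 lie above the line, with S100a9 at 6.04 and 2.86, and Mmp9 and Padi4 lie below it, as skeletal muscle genes do, and Mir31 sits at 0 and -2.28.

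Mir31 encodes the hairpin from which miR-31 is cut, a microRNA known for roles in epithelial and tumour cells. The gene lies at chr4:88910557-88910662 on the minus strand (GRCm38). Because Mir31 was the only gene called, its 2 mature products are shown 5′ to 3′ from RefSeq (GRCm38.p6). The seed, bases 2 to 8, is in capitals.
mmu-miR-31-5p: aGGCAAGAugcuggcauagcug
mmu-miR-31-3p: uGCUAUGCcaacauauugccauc
The libraries were made from polyadenylated RNA, so the value is a reading over the hairpin gene and no measurement of either mature microRNA. It was 0.00031, 0.000195 and 0.000284 TPM in CT26-NY-ESO-1 OK432 and 0.000223, 0.000503 and 0.000495 TPM in CT26-NY-ESO-1 Ctrl. It was 0.000243, 0.000284 and 0.000332 TPM in CT26 OK432, against 4.23, 3.41 and 3.94 TPM in CT26 Ctrl. Thus only the CT26 Ctrl libraries held more than a trace, and their 3 values did not overlap with the other 9. The difference of effects was 2.28 ± 0.168 (SE; limma adjusted p = 0.000141), made of an effect of -2.28 in CT26 and of 0.00 in CT26-NY-ESO-1. The positive difference thus came from the negative effect in CT26. Mir31 kept its call without any single library (2.22 to 2.34), with the set of tested genes unchanged. It passed the filter through the 3 CT26 Ctrl libraries alone, so neither this nor the lack of overlap is independent support. It was not called when the LL/2 libraries joined the fit (adjusted p = 0.439), and a mean of 5 TPM was not reached in any group. It is named because it was the only call, after its values were seen.

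The Cxcr2 ligands Cxcl1, Cxcl2, Cxcl3 and Cxcl5 attract neutrophils and lie close together on chromosome 5. Promoters of 300 bases (250 before and 50 after the start site) were available from RefSeq (GRCm38.p6) for 3 of them. They are shown because these neighbouring genes are alike around a site for NF-kappaB, with the capitals marking GGGAATTTCCC, an NF-kappaB consensus match read on both strands in overlapping windows of 10 bases.
Cxcl3, chr5:90785851-90786150, plus strand: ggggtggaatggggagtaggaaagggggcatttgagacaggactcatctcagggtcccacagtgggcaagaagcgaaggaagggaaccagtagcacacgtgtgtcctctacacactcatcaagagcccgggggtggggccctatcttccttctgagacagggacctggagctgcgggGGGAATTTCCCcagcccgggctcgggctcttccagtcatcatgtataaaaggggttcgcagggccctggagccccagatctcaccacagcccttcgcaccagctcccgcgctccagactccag
Cxcl1, chr5:90890995-90891294, plus strand: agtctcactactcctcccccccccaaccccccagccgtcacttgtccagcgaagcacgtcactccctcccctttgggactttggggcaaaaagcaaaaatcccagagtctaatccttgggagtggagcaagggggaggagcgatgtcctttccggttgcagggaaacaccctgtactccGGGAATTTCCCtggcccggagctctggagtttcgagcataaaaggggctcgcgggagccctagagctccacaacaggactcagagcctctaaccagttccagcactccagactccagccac
Cxcl2, chr5:90903649-90903948, plus strand: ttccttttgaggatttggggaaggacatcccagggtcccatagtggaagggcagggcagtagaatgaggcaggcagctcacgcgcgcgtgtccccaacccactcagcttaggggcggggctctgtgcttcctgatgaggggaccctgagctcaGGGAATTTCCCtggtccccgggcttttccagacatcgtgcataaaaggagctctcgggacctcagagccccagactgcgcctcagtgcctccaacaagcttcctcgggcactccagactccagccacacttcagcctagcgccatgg
The match began 73, 71 and 97 bases before the start sites of Cxcl3, Cxcl1 and Cxcl2. TATAAA was found in Cxcl3 alone, 30 bases before the start, and the AP-1 motif TGANTCA in none of the 3. Over 32851 promoters of the same length, 8.46% held an NF-kappaB match, 13.6% TATAAA and 7.81% the AP-1 motif.

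Of the 4 ligands Cxcl3 had the greatest difference of effects. Cxcl3 measured 64.0, 5.97 and 35.5 TPM in CT26-NY-ESO-1 OK432 against 0.897, 0.431 and 0.944 TPM in CT26-NY-ESO-1 Ctrl. In CT26 it measured 30.6, 22.2 and 22.1 TPM in OK432 against 19.9, 13.8 and 17.5 TPM in Ctrl. The OK432 libraries lay above the Ctrl libraries in both lines, and the lines differed most in the controls, where CT26 was already high. The difference of effects was 3.35 ± 0.935 (SE; limma adjusted p = 0.593), with control levels 3.36 lower in CT26-NY-ESO-1 on the same log2 scale and treated levels 0.01 lower. Cxcl5 was also high in the CT26 controls, and there its groups overlapped. It measured 31.6, 8.26 and 40.5 TPM in CT26-NY-ESO-1 OK432 against 3.41, 2.40 and 0.708 TPM in its Ctrl, and 32.6, 22.8 and 17.0 TPM in CT26 OK432 against 19.6, 12.4 and 12 TPM in its Ctrl. Its difference was 2.31 ± 0.794 (adjusted p = 0.602).

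For Cxcl1 the lines differed in the treated libraries instead. Cxcl1 measured 168, 12.1 and 125 TPM in CT26-NY-ESO-1 OK432 against 8.64, 6.15 and 8.67 TPM in its Ctrl. In CT26 it measured 15.9, 14.9 and 8.31 TPM in OK432 against 12.3, 8.70 and 8.41 TPM in Ctrl, where the groups overlapped. The difference was 2.56 ± 1.15 (adjusted p = 0.637), and CT26-NY-ESO-1 OK432 replicate 2, at 12.1 TPM, lay within the range of the CT26 OK432 libraries. Cxcl2 measured 164, 19.5 and 107 TPM in CT26-NY-ESO-1 OK432 against 5.77, 2.29 and 2.76 TPM in its Ctrl, and 16.3, 30.6 and 11.1 TPM in CT26 OK432 against 1.06, 2.07 and 1.65 TPM in its Ctrl. Its treated libraries exceeded the controls in both lines, and its difference was 1.15 ± 0.999 (adjusted p = 0.791).

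The list of neutrophil chemoattractants and growth factors had 6 of 8 genes tested. None was called, 2 had an unadjusted p under 0.05 in the positive direction and none in the other, and all 6 differences were positive. The smallest were those of Pf4 (0.69) and Ppbp (0.89), which are also in the platelet list (limma adjusted p = 0.681 and 0.705). The median of the 6 was 1.73, against -0.03 over all genes, made of medians of 2.94 in CT26-NY-ESO-1 and 0.44 in CT26. Leaving out single libraries moved it between 1.21 and 2.51. The granulocyte growth factor gene Csf3 was too low to be tested, at 5.10, 0.438 and 3.59 TPM in CT26-NY-ESO-1 OK432, up to 0.141 TPM in its Ctrl, up to 0.780 TPM in CT26 OK432 and up to 0.226 TPM in its Ctrl. Csf2 did not exceed 1.08 TPM in any library.

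**Figure D2:**
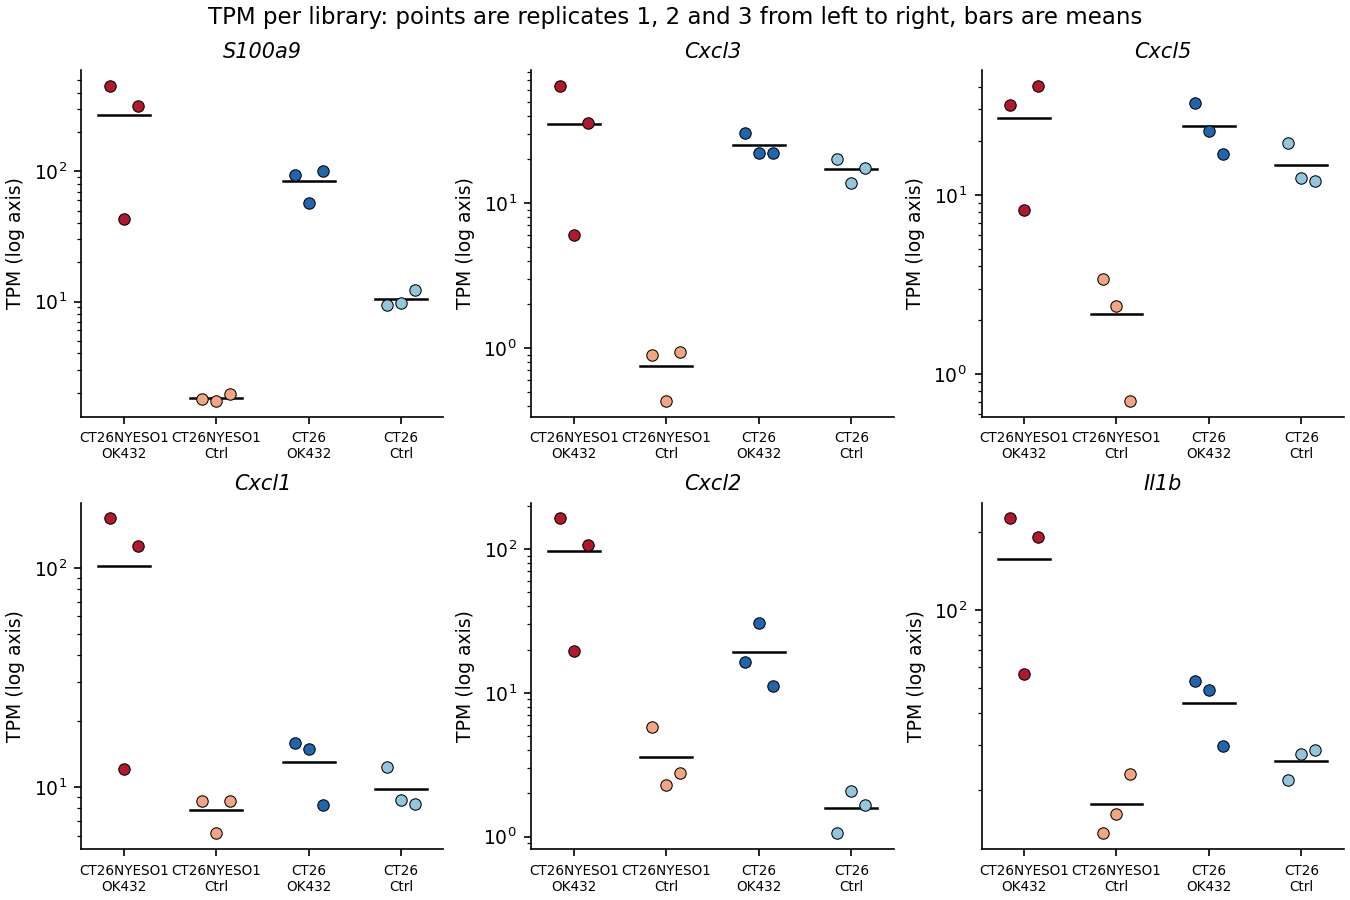
TPM on a logarithmic axis of S100a9, Cxcl3, Cxcl5, Cxcl1, Cxcl2 and Il1b in each library, with the 4 groups along the horizontal axis, points for replicates 1 to 3 from left to right and a bar at the mean. In all 6 genes the middle point of CT26-NY-ESO-1 OK432, replicate 2, is the lowest of its group, and for Cxcl3 and Cxcl5 the CT26 Ctrl libraries lie well above those of CT26-NY-ESO-1.

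Most neutrophil transcripts had positive differences. S100a8 (chr3:90668978-90670035) and S100a9 (chr3:90692632-90695721, GRCm38) are neighbouring protein-coding genes. S100a9, which with S100a8 forms calprotectin and is abundant in neutrophils, measured 452, 42.9 and 320 TPM in CT26-NY-ESO-1 OK432 against 1.78, 1.72 and 1.95 TPM in its Ctrl. In CT26 it measured 94.4, 57.6 and 100 TPM in OK432 against 9.47, 9.83 and 12.2 TPM in Ctrl. Treated libraries exceeded controls in both lines, the CT26-NY-ESO-1 controls were the lowest, and the difference was 3.19 ± 1.03 (adjusted p = 0.60). S100a8 measured 183, 19.6 and 123 TPM in CT26-NY-ESO-1 OK432 against 1.54, 1.90 and 3.32 TPM in its Ctrl, and 35.9, 26.2 and 50.2 TPM in CT26 OK432 against 2.47, 4.87 and 5.72 TPM in its Ctrl. Its difference was 1.77 ± 1.02 (adjusted p = 0.677).

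Of the receptors on the neutrophil, Csf3r and Cxcr2 had smaller differences than S100a8 and S100a9. Cxcr2 was low, and the added 1 TPM shrinks log2 differences at such levels. Csf3r, the receptor for granulocyte colony-stimulating factor, measured 33.0, 17.0 and 25.3 TPM in CT26-NY-ESO-1 OK432 against 12.4, 6.57 and 11.6 TPM in its Ctrl, and 20.3, 14.8 and 18.5 TPM in CT26 OK432 against 13.8, 12.8 and 12.9 TPM in its Ctrl. The difference was 0.82 ± 0.342 (adjusted p = 0.617). Cxcr2 measured 7.44, 0.766 and 5.23 TPM in CT26-NY-ESO-1 OK432 against at most 0.153 TPM in its Ctrl, and 4.98, 1.12 and 4.13 TPM in CT26 OK432 against 0.785, 1.74 and 1.17 TPM in its Ctrl (difference 1.2, adjusted p = 0.710). Il1r2, the decoy receptor for interleukin-1, had a difference of 1.57 ± 0.617 (adjusted p = 0.603). Lcn2, an iron-sequestering granule protein, had 1.44 (adjusted p = 0.748). The collagenase Mmp8 had 0.44, the gelatinase Mmp9 -0.02 and Acod1, the enzyme that makes itaconate, 0.51, each with an adjusted p between 0.806 and 0.997.

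Of 34 neutrophil markers 23 were tested, and none was called. An unadjusted p under 0.05 was reached by 5 in the positive direction and by none in the other, and 21 differences were positive. The median was 0.77, from medians of 1.42 in CT26-NY-ESO-1 and 0.81 in CT26. The summed level of the list was 1355, 275 and 955 TPM in CT26-NY-ESO-1 OK432 and 157, 107 and 187 TPM in its Ctrl, and 335, 228 and 301 TPM in CT26 OK432 and 101, 128 and 129 TPM in its Ctrl. CT26-NY-ESO-1 OK432 replicate 2 lay within the range of the CT26 OK432 libraries, and the other 2 of its group lay above every library of CT26. Ly6g, the defining surface marker of mouse neutrophils, stayed at or below 0.515 TPM in all 12 libraries and was not tested. The median was 0.52 without CT26-NY-ESO-1 OK432 replicate 1 and 1.2 without replicate 2, each of which leaves 2 libraries in that group. Without replicate 2, 6 of the 23 were called for a larger effect, against 0.531% of all genes. Replicate 2 stood apart by its low mean of these same 23 genes, so these calls are not independent of that choice.

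Interleukin-1 beta is the secreted cytokine that drives fever and neutrophil influx. Il1b (chr2:129364570-129371139, minus strand) measured 226, 56.4 and 191 TPM in CT26-NY-ESO-1 OK432 against 13.6, 16.1 and 23.2 TPM in its Ctrl. In CT26 it measured 52.8, 48.8 and 29.7 TPM in OK432 against 21.9, 27.7 and 28.7 TPM in Ctrl. Every OK432 library exceeded every Ctrl library of its line, by a narrow margin in CT26, and the difference was 2.20 ± 0.672 (adjusted p = 0.593). Il1a, which encodes the other interleukin-1 agonist, had 0.55, and the receptor antagonist gene Il1rn 0.75 (adjusted p = 0.769 and 0.753). Nlrp3, the inflammasome sensor that leads to processing of interleukin-1 beta, had 0.61 (adjusted p = 0.650).

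Il6, which encodes the cytokine that drives the acute phase response, measured 6.16, 1.52 and 6.41 TPM in CT26-NY-ESO-1 OK432 against 1.37, 1.75 and 1.5 TPM in its Ctrl, and between 0.919 and 1.29 TPM in all 6 libraries of CT26. Replicates 1 and 3 of the treated CT26-NY-ESO-1 libraries were thus high and replicate 2 was at the control level (difference 0.98 ± 0.450, adjusted p = 0.634). Il33, an alarmin released by damaged cells, measured 24.9, 23.9 and 43.8 TPM in CT26-NY-ESO-1 OK432 against 16.9, 19.3 and 12.9 TPM in its Ctrl, and 3.48, 2.43 and 2.47 TPM in CT26 OK432 against 3.05, 3.52 and 2.98 TPM in its Ctrl. Here all 3 treated CT26-NY-ESO-1 libraries were above their controls, and the CT26 groups overlapped (difference 0.99 ± 0.298, adjusted p = 0.593). Il11, an interleukin-6 family cytokine, had 0.95 ± 0.286 (adjusted p = 0.593).

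Tnf, the gene of tumour necrosis factor, gave no such difference. It measured 17.9, 13.9 and 12.5 TPM in CT26-NY-ESO-1 OK432 against 17.9, 10.8 and 15.7 TPM in its Ctrl, and 13.9, 12.5 and 9.27 TPM in CT26 OK432 against 10.01, 10.3 and 11.1 TPM in its Ctrl, with overlapping groups in both lines (difference -0.14 ± 0.256, adjusted p = 0.917). Of 11 tested proinflammatory cytokines 9 had a positive difference, 4 of them at an unadjusted p under 0.05, and none was called. Their median was 0.66, with 0.82 in CT26-NY-ESO-1 and 0.01 in CT26. It was 0.46 without CT26-NY-ESO-1 OK432 replicate 1 and 1.02 without replicate 2 of that group.

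Among genes that respond to NF-kappaB, Zc3h12a, which encodes an RNase that degrades inflammatory messages, measured 25.3, 20.1 and 25.5 TPM in CT26-NY-ESO-1 OK432 against 14.0, 11.3 and 15.8 TPM in its Ctrl. In CT26 it measured 19.8, 21.4 and 19 TPM in OK432 against 22.6, 21.8 and 21.2 TPM in Ctrl. The 3 treated libraries were above the controls in CT26-NY-ESO-1, while the CT26 groups overlapped, and the difference was 0.87 ± 0.162 (adjusted p = 0.398). Bcl3, an atypical member of the I-kappaB family, measured 29.5, 28.7 and 26.0 TPM in CT26-NY-ESO-1 OK432 against 17.2, 18.4 and 20.4 TPM in its Ctrl, and 8.47, 9.54 and 6.33 TPM in CT26 OK432 against 9.88, 10.004 and 8.82 TPM in its Ctrl (difference 0.79 ± 0.170, adjusted p = 0.442). For Bcl3 CT26-NY-ESO-1 OK432 replicate 2 lay between the other libraries of its group. For Zc3h12a it was the lowest of its group, at 20.1 TPM, and still above every Ctrl library of its line.

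Nfkbiz, a coactivator of Il6 and Lcn2 transcription, had a difference of 0.62 ± 0.219 (adjusted p = 0.602). Ptgs2, the inducible cyclooxygenase, measured 119, 52.3 and 120 TPM in CT26-NY-ESO-1 OK432 against 56.9, 45.8 and 53.2 TPM in its Ctrl, and 60.2, 73.1 and 58.7 TPM in CT26 OK432 against 68.3, 68.3 and 71.5 TPM in its Ctrl (difference 0.92 ± 0.373, adjusted p = 0.609). All 17 NF-kappaB targets had a positive difference, 6 at an unadjusted p under 0.05 and none called, with a median of 0.38 and a range of 0.01 to 0.92. Over all genes 44.1% were positive, and 3.56% were so at an unadjusted p under 0.05. Without CT26-NY-ESO-1 OK432 replicate 2 there were 5 calls among the 17, against 0.531% of all genes for a larger effect. The median was 0.26 without CT26-NY-ESO-1 Ctrl replicate 2 and 0.58 without CT26-NY-ESO-1 Ctrl replicate 3.

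The sensors of bacterial products were divided. Ly96, the Tlr4 co-receptor, measured 16.5, 13.9 and 16.7 TPM in CT26-NY-ESO-1 OK432 against 10.4, 11.9 and 11.1 TPM in its Ctrl, and 16.3, 19.4 and 17.5 TPM in CT26 OK432 against 17.5, 18.6 and 20.4 TPM in its Ctrl (difference 0.54 ± 0.132, adjusted p = 0.502). Cd14, which hands lipopolysaccharide and lipopeptides to the receptors, had 0.49 ± 0.162 (adjusted p = 0.593), and the muramyl dipeptide sensor Nod2 0.48 ± 0.20 (adjusted p = 0.614). Of the 16 genes of the list 10 had a positive difference, with a median of 0.04, which was -0.044 without CT26-NY-ESO-1 Ctrl replicate 2 and 0.11 without CT26-NY-ESO-1 Ctrl replicate 1.

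Among acute phase and antimicrobial proteins Ptx3, a soluble pattern recognition molecule, measured 9.61, 3.73 and 12.2 TPM in CT26-NY-ESO-1 OK432 against 2.63, 2.53 and 0.324 TPM in its Ctrl, and stayed between 0.193 and 0.707 TPM in all 6 libraries of CT26. The difference was 1.74 ± 0.594 (adjusted p = 0.60). Saa3, a serum amyloid A gene, was high in the treated libraries of both lines, with 324, 83.9 and 262 TPM in CT26-NY-ESO-1 OK432 against 27.0, 12.1 and 5.92 TPM in its Ctrl, and 52.3, 16.6 and 24.3 TPM in CT26 OK432 against 8.18, 3.26 and 2.08 TPM in its Ctrl. The difference of 1.28 was close to its SE of 1.01 (adjusted p = 0.769). Slpi, a leukocyte protease inhibitor, had 1.26 ± 0.552 and the metalloreductase gene Steap4 1.12 ± 0.423 (adjusted p = 0.631 and 0.602). In this list 9 of 10 tested genes were positive and 3 reached an unadjusted p under 0.05, with a median of 0.86, or 0.55 and 1.29 without CT26-NY-ESO-1 OK432 replicates 1 and 2 in turn.

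Genes induced by low oxygen also stood on the positive side. Car9, a membrane carbonic anhydrase controlled by hypoxia-inducible factor, measured 78.8, 62.5 and 94.8 TPM in CT26-NY-ESO-1 OK432 against 42.6, 50.6 and 23.6 TPM in its Ctrl, and 12.9, 11.2 and 11 TPM in CT26 OK432 against 18.5, 9.82 and 16.2 TPM in its Ctrl (difference 1.32 ± 0.405, adjusted p = 0.593). The angiogenic factor gene Vegfa measured 194, 130 and 238 TPM in CT26-NY-ESO-1 OK432 against 108, 120 and 104 TPM in its Ctrl, and 140, 152 and 178 TPM in CT26 OK432 against 186, 144 and 196 TPM in its Ctrl (difference 0.87 ± 0.276, adjusted p = 0.593). In both genes the treated CT26-NY-ESO-1 libraries were above their controls and the CT26 groups overlapped. P4ha1, a collagen prolyl hydroxylase, had 0.58 ± 0.179. The glycolytic regulator gene Pfkfb4 was the exception of the list at -0.42 ± 0.135 (adjusted p = 0.593 for both). Of 20 genes 19 were positive, 6 in this direction and 1 in the other at an unadjusted p under 0.05, and none was called. The median was 0.62, with 0.57 in CT26-NY-ESO-1 and -0.02 in CT26.

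Immediate early and heat shock genes, which respond within minutes to growth factors, stress and tissue handling, had 18 of 19 positive differences, 8 at an unadjusted p under 0.05 and none called, with a median of 0.49 that was 0.33 without CT26-NY-ESO-1 OK432 replicate 3. The AP-1 subunit genes Jun and Junb had 0.49 ± 0.149 and 0.56 ± 0.170 (adjusted p = 0.593 for both). Nr4a1, an orphan nuclear receptor of the immediate early class, measured 22.4, 19.2 and 23.8 TPM in CT26-NY-ESO-1 OK432 against 16.3, 16.0 and 19.1 TPM in its Ctrl, and 10.1, 10.3 and 9.96 TPM in CT26 OK432 against 25.4, 11.1 and 13.5 TPM in its Ctrl. The groups separated in opposite directions in the 2 lines (difference 0.91 ± 0.310, adjusted p = 0.60), although CT26 Ctrl replicate 1 was far above the other 2.

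Endothelial markers had small differences of 1 sign. All 15 tested were positive, 6 at an unadjusted p under 0.05 and none called, with a median of 0.40. The vascular cadherin gene Cdh5 measured 16.9, 23.7 and 24.0 TPM in CT26-NY-ESO-1 OK432 against 15.3, 18.9 and 14.5 TPM in its Ctrl, and 112, 87.9 and 107 TPM in CT26 OK432 against 118, 104 and 123 TPM in its Ctrl. The groups overlapped in both lines (difference 0.55 ± 0.199, adjusted p = 0.602), and the level of the CT26 libraries was several times that of CT26-NY-ESO-1 under either treatment. The receptor for vascular endothelial growth factor, Kdr, had 0.38 ± 0.152 and Plvap, a component of endothelial diaphragms, 0.50 ± 0.201 (adjusted p = 0.603 for both). Of 14 matrix protease and remodelling genes 10 were positive, with a median of 0.27. That median was 0.20 without CT26-NY-ESO-1 OK432 replicate 3 and 0.42 without CT26 OK432 replicate 1. The aggrecanase gene Adamts4 had 0.77 ± 0.282 and the macrophage elastase gene Mmp12 0.87 ± 0.446 (adjusted p = 0.602 and 0.653).

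Of 12 genes linked with suppressive myeloid cells 10 were positive, with a median of 0.35. That median was 0.31 without CT26 OK432 replicate 3 and 0.53 without CT26-NY-ESO-1 OK432 replicate 2. Vegfa, S100a9, Hif1a and Ptgs2 were the 4 at an unadjusted p under 0.05. Hif1a, the oxygen-regulated transcription factor, had 0.41 ± 0.148 (adjusted p = 0.602). Nos2, the inducible nitric oxide synthase, measured 61.7, 12.3 and 43.4 TPM in CT26-NY-ESO-1 OK432 against 7.60, 3.77 and 15.1 TPM in its Ctrl, and 15.6, 13.7 and 8.13 TPM in CT26 OK432 against 7.18, 6.47 and 5.51 TPM in its Ctrl. Replicate 2 of the treated CT26-NY-ESO-1 libraries lay within the range of its controls, and the difference was 1.11 ± 0.830 (adjusted p = 0.753). Cd274, which encodes the checkpoint ligand PD-L1, had 0.29 ± 0.416 (adjusted p = 0.888).

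**Figure D3:**
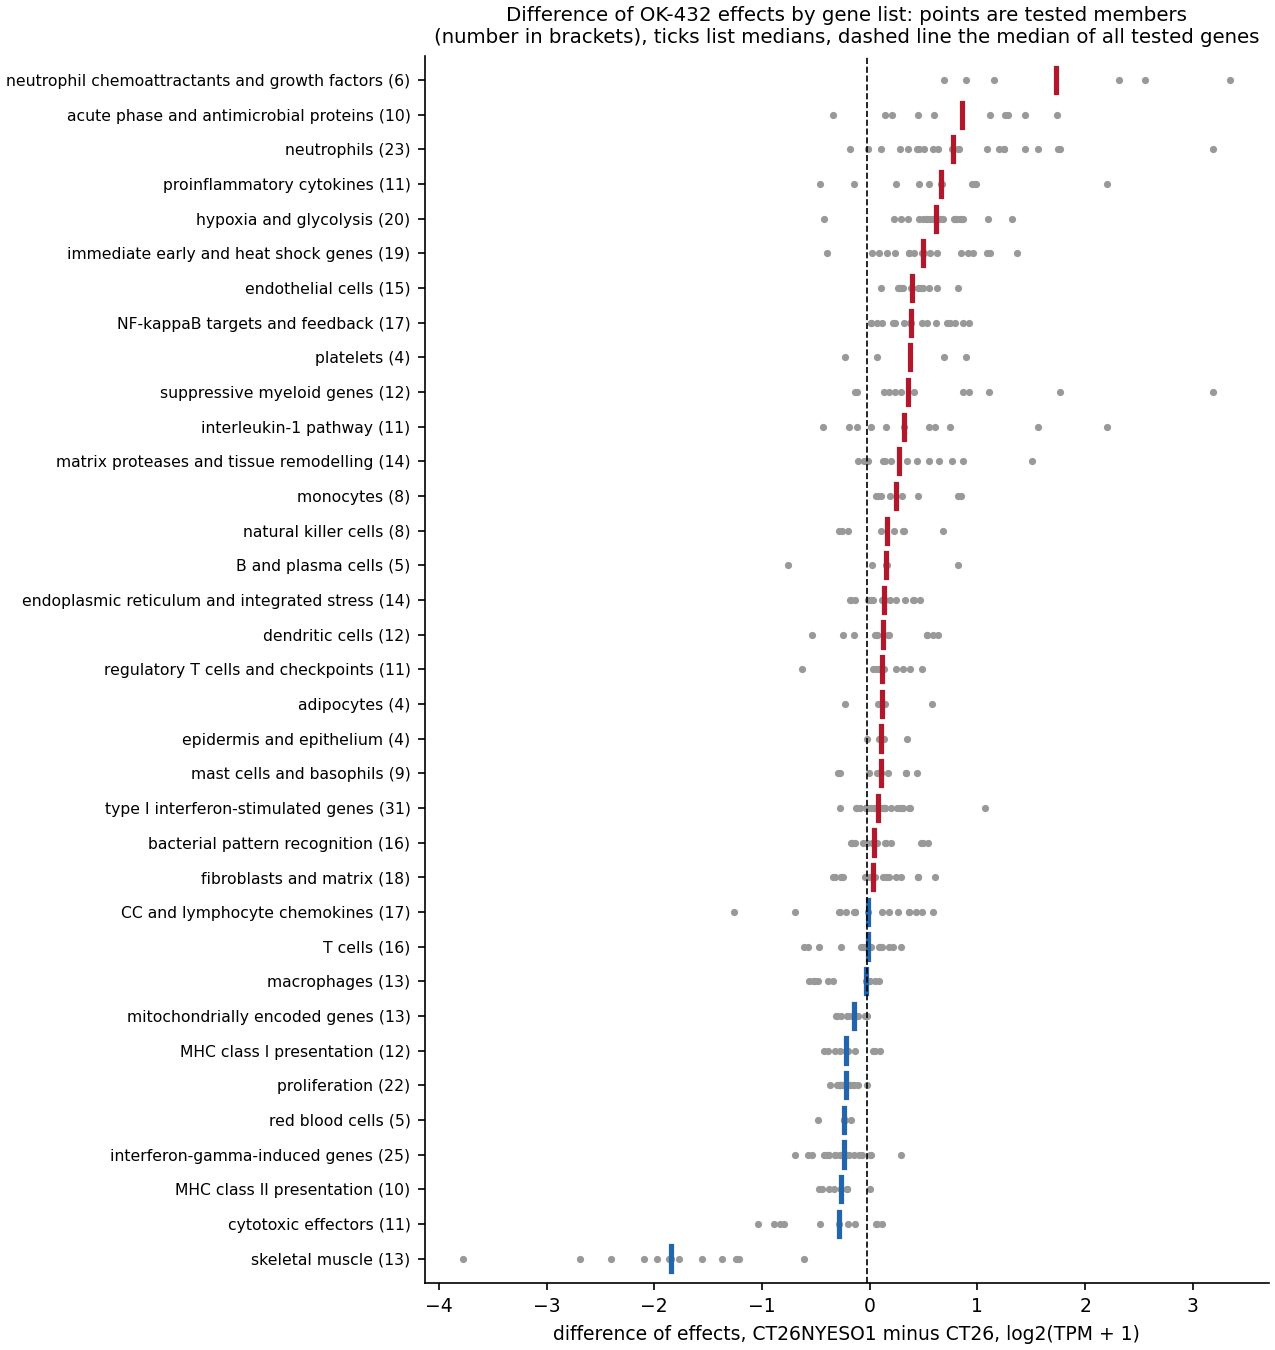
Difference of OK-432 effects, CT26-NY-ESO-1 minus CT26 in log2(TPM + 1), of the tested members (grey points, their number in brackets) of 35 gene lists, ordered by their median (coloured tick), with a dashed line at the median of all genes, -0.03. Medians run between 1.73 for neutrophil chemoattractants and -1.84 for skeletal muscle, and those of T cells and type I interferon-stimulated genes are -0.02 and 0.07.

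The monocyte gene Ly6c2 measured 30.3, 19.7 and 26.7 TPM in CT26-NY-ESO-1 OK432 against 41.8, 33.7 and 24.8 TPM in its Ctrl, and 25.2, 19 and 16.8 TPM in CT26 OK432 against 42.0, 53.8 and 47.8 TPM in its Ctrl. Treated libraries were below the controls in CT26 and overlapped with them in CT26-NY-ESO-1, so the positive difference of 0.84 ± 0.294 (adjusted p = 0.602) came with a negative effect in both lines. All 8 monocyte markers were positive, with a median of 0.24. The monocyte chemokine gene Ccl2 had 0.27, and Ccl3 and Ccl4, which encode inflammatory CC chemokines, had 0.37 and 0.49 (adjusted p between 0.865 and 0.940). Of 13 macrophage markers 10 were negative, with a median of -0.03 (8 after median-of-ratios scaling). That median ran between -0.20 without CT26-NY-ESO-1 Ctrl replicate 3 and 0.010 without CT26-NY-ESO-1 OK432 replicate 3. The lipid receptor gene Trem2 had -0.56 ± 0.242 and the complement gene C1qa -0.50 ± 0.259 (adjusted p = 0.619 and 0.656).

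No gene of the lymphocyte and interferon lists was called with all 12 libraries. Cd8a, the co-receptor of cytotoxic T cells, measured 4.15, 2.87 and 2.07 TPM in CT26-NY-ESO-1 OK432 against 4.69, 1.85 and 4.40 TPM in its Ctrl, and 0.911, 0.527 and 0.520 TPM in CT26 OK432 against 0.426, 0.811 and 1.27 TPM in its Ctrl. The groups overlapped in both lines, and the difference was -0.04 ± 0.386 (adjusted p = 0.988). The granzyme gene Gzmb had 0.06 ± 0.469 (adjusted p = 0.985). Of 16 T cell genes 7 were positive, with a median of -0.02 (8 and a median of 0.00 after median-of-ratios scaling), and of 11 cytotoxic effectors 3, with a median of -0.29. Single libraries turned both medians: the T cell one was -0.23 without CT26-NY-ESO-1 Ctrl replicate 2 and 0.15 without CT26 Ctrl replicate 1, and the cytotoxic one -0.59 without CT26-NY-ESO-1 Ctrl replicate 2 and 0.14 without CT26-NY-ESO-1 Ctrl replicate 3. A p that misses the threshold does not show that these effects were equal.

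Type I interferon-stimulated genes numbered 31, of which 22 were positive, with a median of 0.07, which was -0.065 without CT26-NY-ESO-1 OK432 replicate 1 and 0.22 without CT26-NY-ESO-1 Ctrl replicate 1. Ifit1 and Irf7, an antiviral effector and the transcription factor that amplifies the response, had 0.04 ± 0.240 and 0.09 ± 0.329 (adjusted p = 0.978 and 0.964). Rsad2, the antiviral enzyme viperin, was the 1 member at an unadjusted p under 0.05, with 32.9, 18 and 39.0 TPM in CT26-NY-ESO-1 OK432 against 18.4, 19.2 and 17.2 TPM in its Ctrl, and 61.2, 65.6 and 48.5 TPM in CT26 OK432 against 83.2, 95.7 and 63.7 TPM in its Ctrl (difference 1.07 ± 0.347, adjusted p = 0.598). Genes induced by interferon-gamma were on the negative side, 22 of 25, with a median of -0.24 and none at an unadjusted p under 0.05. It was -0.53 without CT26-NY-ESO-1 Ctrl replicate 2 and -0.071 without CT26-NY-ESO-1 OK432 replicate 3. Ifng itself had -0.46 ± 0.357, and the chemokine genes Cxcl9 and Cxcl10, which attract T cells, -0.69 ± 0.624 and -0.15 ± 0.296 (adjusted p between 0.756 and 0.929). All 10 genes of class II antigen presentation were negative (median -0.27, 9 of 10 after median-of-ratios scaling), and of 12 class I genes 9 were (median -0.22). The class II median turned to 0.016 without CT26 Ctrl replicate 1 and was -0.66 without CT26-NY-ESO-1 OK432 replicate 2. For class I it was -0.44 without CT26-NY-ESO-1 Ctrl replicate 2 and -0.072 without CT26-NY-ESO-1 Ctrl replicate 1. The interferon-gamma and class II directions moved with the muscle level: with it as a covariate the median was 0.04 for the interferon-gamma list and 0.27 for class II presentation.

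Xcl1, a chemokine of activated T and natural killer cells that attracts cross-presenting dendritic cells, measured 1.44, 5.96 and 4.19 TPM in CT26-NY-ESO-1 OK432 against 11.8, 8.96 and 8.96 TPM in its Ctrl. In CT26 it measured 9.11, 8.62 and 4.76 TPM in OK432 against 6.5, 8.67 and 7.15 TPM in Ctrl. The treated libraries were below the controls in CT26-NY-ESO-1 alone, and the difference was -1.26 ± 0.476 (adjusted p = 0.602).

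All 22 proliferation genes had a negative difference (21 after median-of-ratios or quantile scaling), with a median of -0.22 and a range of -0.36 to -0.02. That median was -0.35 without CT26-NY-ESO-1 OK432 replicate 1 and -0.17 without replicate 3 of that group. At an unadjusted p under 0.05 there were 5 of these genes, and none was called. The apoptosis inhibitor and mitotic gene Birc5 measured 117, 93.0 and 99.8 TPM in CT26-NY-ESO-1 OK432 against 125, 118 and 123 TPM in its Ctrl, and 120, 131 and 133 TPM in CT26 OK432 against 121, 128 and 124 TPM in its Ctrl (difference -0.28 ± 0.106, adjusted p = 0.602). The treated libraries were below the controls in CT26-NY-ESO-1 and overlapped with them in CT26. The mitotic kinase gene Aurkb had -0.36 ± 0.154 and the replicative helicase gene Mcm2 -0.22 ± 0.093 (adjusted p = 0.617 for both). Mitochondrially encoded genes had a median of -0.14, or -0.25 without CT26 OK432 replicate 2 and -0.096 without CT26-NY-ESO-1 Ctrl replicate 2. All 13 were negative too (12 after either scaling). Their share of total TPM was 5.67% ± 0.186 in CT26-NY-ESO-1 OK432 and 5.96% ± 0.329 in its Ctrl, and 4.28% ± 0.237 in CT26 OK432 and 4.12% ± 0.155 in its Ctrl (SD, n = 3 each). TPM is a share of a fixed total, so genes that take a greater share lower all others, and the part of this in these small values was not tested.

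Skeletal muscle genes gave the most negative median of the 35 lists. All 13 tested were negative, with a median of -1.84, 1 at an unadjusted p under 0.05 and none called. The median was -0.91 without CT26 OK432 replicate 1 and -2.61 without CT26-NY-ESO-1 Ctrl replicate 2. Tnni2, the fast muscle troponin I gene, measured 3.98, 9.64 and 5.59 TPM in CT26-NY-ESO-1 OK432 against 9.77, 5.37 and 7.77 TPM in its Ctrl, and 8.53, 3.91 and 4.19 TPM in CT26 OK432 against 2.98, 3.41 and 0.901 TPM in its Ctrl (difference -1.22 ± 0.551, adjusted p = 0.634). The myosin heavy chain gene Myh1 measured 0.940, 9.78 and 0.115 TPM in CT26-NY-ESO-1 OK432 against 10.4, 0.0264 and 17.3 TPM in its Ctrl, and 15.2, 1.11 and 0 TPM in CT26 OK432 against 0, 0.0202 and 0.141 TPM in its Ctrl. The 4 libraries with the high summed muscle level given above carried its values, and the difference was -2.69 ± 1.91 (adjusted p = 0.743). The same libraries were high in Tnnt3 (-2.40), in the intermediate filament gene Des (-1.93) and in the carbonic anhydrase gene Car3 (-1.66), with adjusted p between 0.730 and 0.733.

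With all 12 libraries the smallest adjusted p after Mir31 belonged to genes whose groups were tight, chosen here after their values were seen. Cryl1, an enzyme of gulonate metabolism, measured 7.14, 7.59 and 5.53 TPM in CT26-NY-ESO-1 OK432 against 12.4, 10.9 and 10.5 TPM in its Ctrl, and 23, 24.7 and 25.8 TPM in CT26 OK432 against 19.3, 20.6 and 21.3 TPM in its Ctrl. The groups separated downwards in CT26-NY-ESO-1 and upwards in CT26 (difference -0.92 ± 0.147, adjusted p = 0.270). Ern1, the endoplasmic reticulum stress sensor IRE1, measured 24.5, 28.8 and 25.6 TPM in CT26-NY-ESO-1 OK432 against 17.8, 19.8 and 18.5 TPM in its Ctrl, and 17.7, 17.6 and 16.6 TPM in CT26 OK432 against 19.4, 20.2 and 18.7 TPM in its Ctrl (difference 0.63 ± 0.104, adjusted p = 0.270). Ptafr, the receptor for platelet-activating factor, had 0.90 ± 0.159 and Rex1bd -0.48 ± 0.0843 (adjusted p = 0.304 for both). Their groups again separated in opposite directions, but in CT26 by a narrow margin. For Ptafr the highest CT26 OK432 library was at 12.729 TPM and the lowest Ctrl library at 12.731 TPM. For Rex1bd the lowest CT26 OK432 library was at 171.63 TPM and the highest Ctrl library at 171.18 TPM. Among all genes 34 had every treated library above every control in CT26-NY-ESO-1 and below in CT26 (0.212%), and 61 the reverse (0.381%). How many genes would separate in this way without a difference of effects was not tested. Of the listed genes only Nr4a1 and Il12b, which encodes a subunit of interleukin-12, had such opposite separation.

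Angptl4, a secreted inhibitor of lipoprotein lipase, was another. It measured 63.6, 46.9 and 71.3 TPM in CT26-NY-ESO-1 OK432 against 42.1, 46.8 and 37.0 TPM in its Ctrl, and 130, 157 and 125 TPM in CT26 OK432 against 189, 201 and 198 TPM in its Ctrl. Replicate 2 of the treated CT26-NY-ESO-1 libraries was barely above the controls, and the difference was 1.02 ± 0.195 (adjusted p = 0.436). Dleu2, the host transcript of miR-15a and miR-16-1, measured 16.1, 6.85 and 16.5 TPM in CT26-NY-ESO-1 OK432 against 7.83, 16.9 and 13.9 TPM in its Ctrl, and 18.5, 20.5 and 24.6 TPM in CT26 OK432 against 7.80, 6.91 and 6.61 TPM in its Ctrl. Its groups separated in CT26 alone (difference -1.45 ± 0.447, adjusted p = 0.593).

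**Figure D4:**
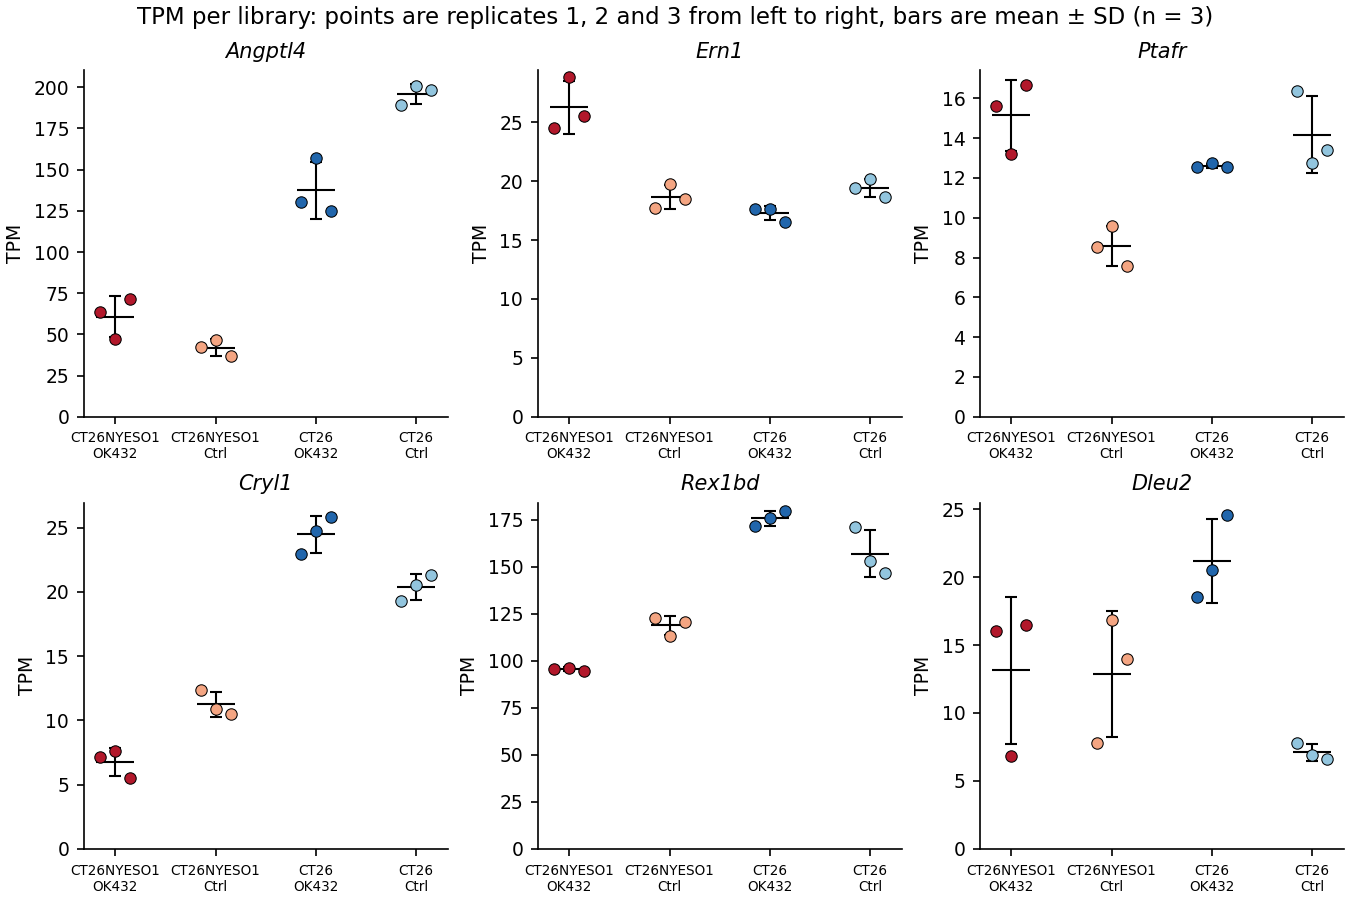
TPM of Angptl4, Ern1, Ptafr, Cryl1, Rex1bd and Dleu2 in each library (points for replicates 1 to 3 from left to right) with mean and SD (n = 3) for the 4 groups. In the first 5 the treated libraries lie on opposite sides of their controls in the 2 lines, while Dleu2 separates in CT26 alone. The margin is narrow for Ptafr and Rex1bd in CT26 and for Angptl4 in CT26-NY-ESO-1.

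Of the genes with a difference of at least 1 and a mean of at least 5 TPM in some group, the remaining ones with a small p were mixed. On the positive side were Mefv, the inflammasome component pyrin (1.23), Slfn4, a Schlafen gene of myeloid cells (1.67), the interferon-induced transmembrane gene Ifitm6 (1.23), the Myc antagonist gene Mxd1 (1.33), a T cell receptor joining segment, Trbj1-2 (1.002), and Gm16754 (1.01), with adjusted p between 0.443 and 0.593. Slfn4 measured 123, 42.7 and 97.2 TPM in CT26-NY-ESO-1 OK432 against 34.4, 33.4 and 27.8 TPM in its Ctrl, and 68.2, 81.2 and 69.8 TPM in CT26 OK432 against 104, 105 and 76.2 TPM in its Ctrl. It thus separated upwards in CT26-NY-ESO-1, while the CT26 groups overlapped at 76.2 and 81.2 TPM. Trbj1-2 spans only chr6:41534001-41534048 (GRCm38), so its TPM, like that of Mir31, was a reading over a short gene. On the negative side were the stromal gene Islr (-1.06), Gm50461 (-1.39) and Gm49890 (-3.22), with adjusted p between 0.640 and 0.687. Gm49890 was listed at 0, 34.4 and 0 TPM in CT26 Ctrl and between 14.4 and 34.7 TPM in the other 9 libraries, so 2 listed zeros carried its value. Gm50461 was listed at 5.44, 5.25 and 0 TPM in CT26 Ctrl, and its difference was -0.50 without CT26 Ctrl replicate 3, the library with the listed zero.

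The number of calls rested on 1 library. Without CT26-NY-ESO-1 OK432 replicate 2, which leaves 2 libraries in that group, 85 genes were called for a larger effect in CT26-NY-ESO-1 (0.531%) and 6 for a smaller effect (0.0375%). Leaving out any of the other 11 gave 1 call for a larger effect and at most 1 for a smaller one. Among the 85 were Cxcl3 at 4.28, S100a9 at 4.23, Cxcl1 at 3.72 and Il1b at 2.83 (adjusted p = 0.000634, 0.000531, 0.00216 and 0.0155). Il6 at 1.49, Ptgs2 at 1.31, Vegfa at 1.11 and Zc3h12a at 0.98 were called too (adjusted p = 0.0054, 0.00169, 0.0346 and 0.0194). So were, named after their values were seen, the neutrophil genes G0s2 at 2.58 and Stfa2l1 at 1.99, the chemerin-binding receptor gene Ccrl2 at 2.26 and Il1f9, an interleukin-36 gene, at 1.84. S100a8, Cxcl2 and Cxcl5 were not (adjusted p = 0.0509, 0.198 and 0.0584). The 6 with a smaller effect were Cryl1, Ccdc134, Mrpl57, Rex1bd, Tbcd and Elovl1, with differences between -0.998 and -0.381.

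**Figure D5:**
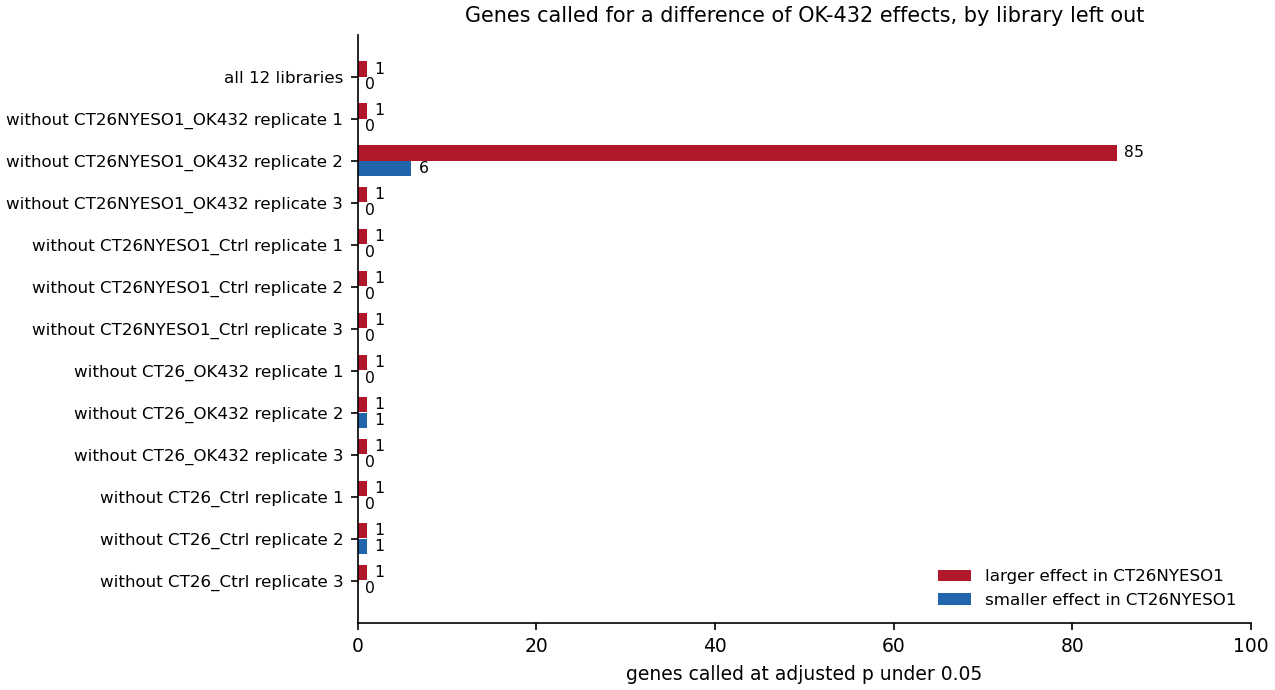
Number of genes called for a larger (red) or smaller (blue) OK-432 effect in CT26-NY-ESO-1 than in CT26 with all 12 libraries and with each library left out in turn. Only leaving out CT26-NY-ESO-1 OK432 replicate 2 gives more than 2 calls, 85 larger and 6 smaller.

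That library had the lowest level of its group in S100a9, Il1b and each of the 4 Cxcr2 ligands. It also held skeletal muscle genes at 162 TPM, against 18.3 and 12.1 TPM in replicates 1 and 3. The part of either in the calls was not tested beyond this: with the mean muscle level as a covariate, and all 12 libraries, 1 gene was called.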

How the data were processed

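Mouse tumour RNA was made into stranded libraries with a TruSeq mRNA kit, per the labels' protocols. The authors deposited 1 table of TPM per gene. Per the submitters' processing notes the tools were StringTie 2.1.2, STAR 2.7.3a and Trim Galore 0.6.5, and the build was mm10. The notes used here give no annotation. TPM is a share of a fixed total per library, so it holds no depth, and its exact zeros can be failed estimates. From it log2(TPM + 1) was computed for the 12 libraries of both CT26 lines. Genes with at least 1 TPM in at least 3 libraries were fitted with limma 3.58.1 (R 4.3.3) as 4 group means with 8 residual degrees of freedom, using trended, robust empirical Bayes variances, and p-values were Benjamini-Hochberg adjusted over 16019 genes. The script was tested on simulated data. Gene positions came from GENCODE M21 and promoters and microRNAs from RefSeq. Lists were described by counts and medians, with no test.

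Genes named were called genes with a group mean of at least 5 TPM, up to 10 in each direction, filled up with uncalled genes of smallest p and a difference of at least 1, a panel, and up to 3 members of smallest p from each list. Members, lists and panel were chosen with earlier results of these data known. A panel gene is not reported here. Alternatives covered pseudocounts, filters, scalings, weights, blocks, a muscle covariate, each library left out and, chosen after seeing the data, protein-coding genes only.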

Additional observations from a re-analysis of the deposited data

Results flagged for a closer look

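The OK-432 effect on Mir31 differed between the 2 lines by 2.28 on the log2(TPM + 1) scale (limma adjusted p = 0.000141), a test of the difference itself. The effect was 0.00 in CT26-NY-ESO-1 and -2.28 in CT26, where the 3 Ctrl libraries held 4.23, 3.41 and 3.94 TPM. Mir31 passed the filter through these 3 libraries alone.

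Outside the comparison, LL/2 OK432 replicate 1 held 4.71 TPM of Mir31. The other 5 LL/2 libraries, 2 OK432 and 3 Ctrl, held between 0.000178 and 0.000211 TPM, so the reading also differed in this way between replicates of 1 group. The part of this in the CT26 result was not tested.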

How the results depend on the processing

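The count of genes with a larger effect in CT26-NY-ESO-1 was 1 and that with a smaller effect 0 under both other pseudocounts, 3 scalings, sample weights, untrended variances and the muscle covariate. Without a filter on low values the counts were 4 and 2, adding Gm15885, Gm23138 and Gm28924 to Mir31 and giving Gm45004 and Mir574 a smaller effect, all of them under 1 TPM in every library. No gene was called (0 and 0) among genes of at least 5 TPM in 3 libraries, with all 18 libraries in the fit or among protein-coding genes only. The first and last of these leave out Mir31, and in the second its adjusted p was 0.439. Leaving out single libraries, with the set of tested genes unchanged, gave 1 to 85 genes with a larger and 0 to 6 with a smaller effect. Without CT26 OK432 replicate 2 the smaller one was E130102H24Rik (-1.62), and without CT26 Ctrl replicate 2 Gm49890 (-4.94). At an unadjusted p under 0.05 the split of 571 larger and 692 smaller turned to 676 and 527 after median-of-ratios scaling. Same-numbered libraries showed little likeness: of 18 such pairs 2 had a correlation of deviations above 0.1 (-0.265 to 0.153). With 3 libraries per group such correlations cannot exclude that replicate numbers pair the libraries. The replicate block gave 1 and 0 genes (smallest adjusted p 0.00212), and the block within line also 1 and 0 (0.0272).

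Of 94 named genes 11 changed sign somewhere, none of them called. With the muscle covariate the difference was 0.19 for Mmp9, 0.11 for Tnf, 0.0106 for Cxcl9, 0.19 for Cxcl10, 0.31 for Cd8a and -0.0117 for Ifit1. Mmp9 was 0.0385 with a pseudocount of 5, 0.0201 after median-of-ratios scaling and 0.0393 with sample weights, and Cd8a was 0.0382 with a pseudocount of 0.1. Without single libraries Mmp9 ran between -0.41 and 0.50, Ccl2 between -0.0781 and 0.54, Ccl3 between -0.11 and 1.04, Cd8a between -0.36 and 0.14, Gzmb between -0.30 and 0.35, Ifit1 between -0.11 and 0.20, Irf7 between -0.0565 and 0.36 and Cd274 between -0.0396 and 0.51. The cause was not tested. TPM gives no depth, so no counting error can be set beside values under 1 TPM.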
